A study of Mus musculus with 4 samples.

Results

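The genes described here are 32 genes of cholesterol and fatty acid synthesis, chosen by their known role from the 23337 genes in the table. The choice was made with earlier results of these data known, so the list is not independent of them. They comprise 5 genes of SREBP control, 16 enzymes of sterol synthesis, 6 enzymes of fatty acid synthesis and 5 genes of lipid transport. Their expression was compared by RNA-seq between medullary thymic epithelial cells (mTECs) of wild-type (WT) mice and of mice labelled here *Sirt6* conditional knockout (cKO). All were on the C57BL/6 background and 4 weeks old. The deposited record gives the knockout genotype as *Sirt6*-/-, and cKO is the paper's name for these mice. In the cKO, Foxn1-Cre deletes a floxed *Sirt6* allele, so the deletion is targeted to thymic epithelial cells as a whole, cortical cells included. WT controls lacked the Cre. The mTECs were sorted from the thymus as CD45-EpCAM+UEA-1+Ly51- cells. Each genotype had 2 libraries, with total counts from 61102704 to 65907745. No source used here says whether the 2 libraries of a genotype came from separate animals, so p-values measure only the spread between these samples.

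The SREBP transcription factors are made as precursors in the membrane of the endoplasmic reticulum. SCAP carries them to the Golgi for cleavage when sterols are low, and the INSIG proteins hold SCAP back when sterols are plentiful. Released SREBP raises the enzymes of the mevalonate and sterol path and of fatty acid synthesis, *Insig1* and the *Srebf* genes among its targets. SIRT6 is a histone deacetylase that has been described in liver as a repressor of the *Srebf* genes. Cholesterol also moves between cells on lipoproteins, for which apolipoprotein E is a ligand.

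The targeted gene did not separate the genotypes in the direction of the labels. *Sirt6* was at 9.50 CPM in WT 1, 11.9 in WT 2, 14.6 in cKO 1 and 13.0 in cKO 2, where CPM is the gene's share of the library's counts, as counts in each 1000000, with library totals scaled by the TMM method. Both libraries labelled *Sirt6* cKO lay above both WT libraries, with a log2 fold change of 0.37 ± 0.32 (SE) and an adjusted p = 0.80 in edgeR's quasi-likelihood test. Counts over the whole gene do not show whether single exons were deleted. The paper reports that *Sirt6* was inactivated, from a western blot of cultured thymic epithelial cells and quantitative PCR of *Sirt6* mRNA in sorted mTECs. Those assays were not analysed here. The deposited assignment of libraries to genotypes was kept, and every direction below refers to the libraries labelled here *Sirt6* cKO against WT. Markers of mTECs were found in all 4 libraries. Their summed level was 11700 and 11340 CPM in WT 1 and 2 and 13440 and 13840 CPM in cKO 1 and 2. *H2-Aa*, an MHC class II gene, had 453289 to 496639 counts and made up most of this sum in each library, while *Cldn3* had 809 to 1169 counts. Of those 10 markers, *Epcam*, *Aire*, *Cd80* and *Spib* were called higher in the cKO libraries by an unadjusted p of 0.05, where 5.27% of all genes tested were. *Cldn3* and *Fezf2* had negative log2 fold changes of -0.31 and -0.20 and did not pass the test. Of 8 tuft cell markers 5 were called lower, where 3.32% of all genes tested were. The 8 summed to 583 and 672 CPM in WT and 306 and 310 CPM in cKO. *Pou2f3* and *Dclk1* of the same list had log2 fold changes of 0.24 and 0.36 and did not pass the test. These lists describe the kinds of mTEC in the gate, and their part in the results below was not tested. In bulk RNA, fewer cells of a type and less RNA per cell cannot be told apart.

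Promoter sequences of 5 of the genes called higher in the cKO libraries are shown because SREBP acts at such sites, together with the factors NF-Y and Sp1. The sequences are from RefSeq on GRCm38.p6, run 5′ to 3′ on the gene's strand and end at or before the start of the annotated transcript. Capitals mark matches on either strand to the NF-Y box CCAAT, to the GC box that reads GGGCGG, to the E-box with the letters CACGTG and to forms of the sterol regulatory element. On the opposite strand the NF-Y box appears as ATTGG in these lines, and in the same way the GC box appears reversed as CCGCCC there. These forms are TCACNCCAC and the shorter TCACCCNA, which can overlap. The shorter form was chosen after the promoter sequences were seen, so it supports nothing.
Srebf2 (chr15:82147031-82147180, + strand): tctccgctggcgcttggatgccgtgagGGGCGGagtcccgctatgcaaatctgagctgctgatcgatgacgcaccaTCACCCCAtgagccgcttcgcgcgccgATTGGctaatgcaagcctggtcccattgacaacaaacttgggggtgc
Insig1 (chr5:28071213-28071362, + strand): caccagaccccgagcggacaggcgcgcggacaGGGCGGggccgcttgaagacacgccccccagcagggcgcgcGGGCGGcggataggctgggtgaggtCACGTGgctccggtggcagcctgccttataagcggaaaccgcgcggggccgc
Srebf1 (chr11:60210472-60210621, - strand): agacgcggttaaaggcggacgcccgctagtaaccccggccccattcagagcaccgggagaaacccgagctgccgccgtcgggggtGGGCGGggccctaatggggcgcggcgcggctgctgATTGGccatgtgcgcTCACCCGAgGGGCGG
Hmgcs1 (chr13:119690201-119690350, + strand): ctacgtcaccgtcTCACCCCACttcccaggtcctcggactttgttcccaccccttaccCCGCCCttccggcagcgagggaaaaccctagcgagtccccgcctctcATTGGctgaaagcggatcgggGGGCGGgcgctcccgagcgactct
Fasn (chr11:120824548-120824697, - strand): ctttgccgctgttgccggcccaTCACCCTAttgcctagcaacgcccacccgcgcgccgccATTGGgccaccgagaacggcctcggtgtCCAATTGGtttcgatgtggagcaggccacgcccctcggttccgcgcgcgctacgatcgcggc

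In these stretches TCACCCNA lay at -162 from the RefSeq start in *Srebf2*, at -137 in *Hmgcs1* and at -128 in *Fasn*. In *Srebf1* it lay at -15 from the start that lies furthest inside the gene. The windows of the other *Srebf1* starts, not shown, held no TCACCCNA. In *Hmgcs1* the same letters were also the only match to TCACNCCAC among these genes. *Insig1* held CACGTG, an E-box, at -101. *Insig2*, also called higher, is not shown, and its windows held CCAAT and GGGCGG but none of the other motifs. RefSeq windows of 250 bases before to 50 bases after each start were held for 26 of the 32 genes, and *Fdft1*, *Fdps*, *Scd1*, *Scd2*, *Sqle* and *Stard4* were not among them. CCAAT was found for 20 of the 26 genes (76.9%) and for 41.1% of all 27025 genes in the table. GGGCGG was found for 21 (80.8%) against 38.2% of all genes. The E-box CACGTG was found for 4 (15.4%) against 8.09%, and TCACNCCAC for 1 (3.85%) against 1.44%. TCACCCNA was found for 6 (23.1%), namely *Apoe*, *Fasn*, *Hmgcs1*, *Nsdhl*, *Srebf1* and *Srebf2*, against 4.29% of all genes. A longer sterol regulatory element and a direct repeat had no match among the 26 genes and matched 0.1% and 0.052% of all genes. The repeat was searched with a spacing that is not that of the site bound by LXR. Whether these windows hold LXR sites was therefore not tested. Some genes have more than 1 window, which raises the share by gene. By window, CCAAT was found in 56.8% of the 37 windows of these genes and in 37.4% of all 32851. For GGGCGG the shares by window were 67.6% and 35.7%. These matches describe letters only. Each of the 6 genes that were both in the table and called higher held CCAAT in a window, among the 20 of 26 that did.

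As levels per transcript length, given in TPM (transcripts in each 1000000), the 32 genes covered a wide range in mTECs. *Apoe* was highest, at 1277 ± 474 TPM in WT and 401 ± 70.6 TPM in cKO (mean ± SD, n = 2), and its mean over the 4 libraries ranked 129 among all genes. *Acly*, which makes cytosolic acetyl-CoA from citrate, followed at 238 ± 16.2 TPM in WT and 259 ± 7.58 TPM in cKO. *Sqle*, the squalene epoxidase, was at 214 ± 26.7 TPM in WT and 259.6 ± 38.3 TPM in cKO. The levels of *Acly* and *Sqle* overlapped, and neighbours in the order of mean TPM were apart over all 4 libraries only between *Apoe* and *Acly*, between *Acat2* and *Pmvk*, and between *Elovl6* and *Nsdhl*. *Vldlr*, a lipoprotein receptor, was lowest at a mean of 2.16 TPM.

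**Figure D1:**
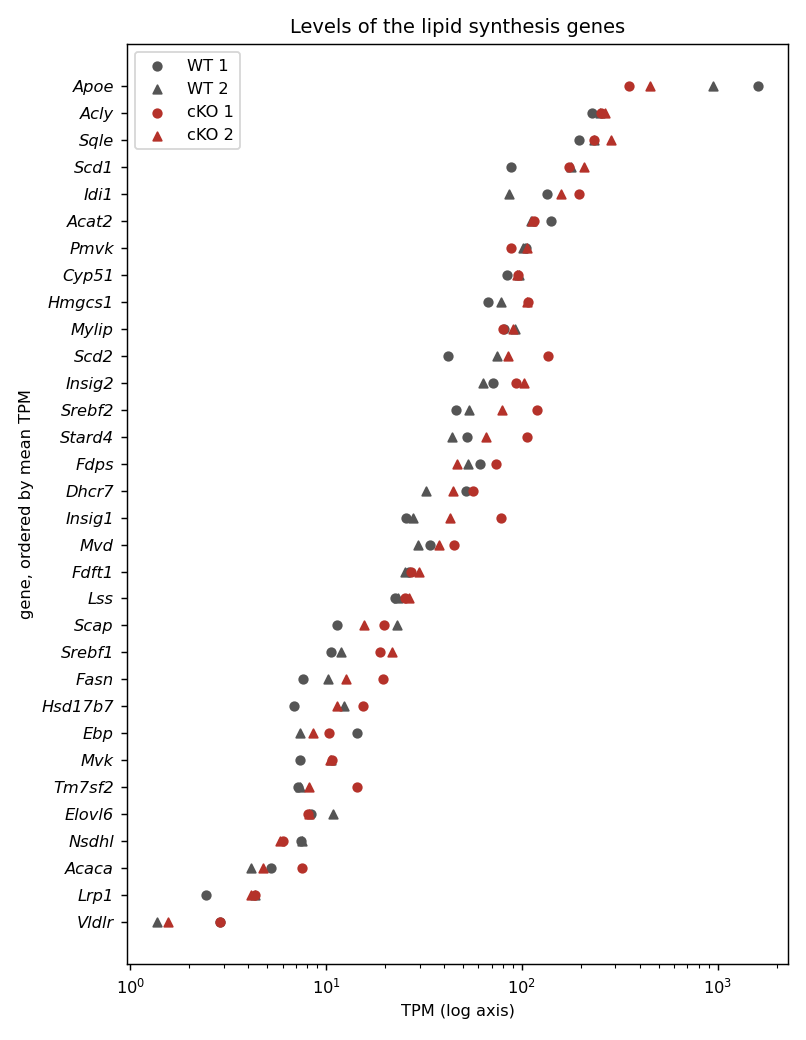
TPM on a log axis of the 32 genes, ordered by their mean, in WT 1 and 2 (grey) and cKO 1 and 2 (red), with circles for replicate 1 and triangles for replicate 2. *Apoe* at the top has its WT points to the right of its cKO points, while *Vldlr* at the bottom has a mean of 2.16 TPM.

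All 32 genes passed the filter on low counts and were tested among 18547 genes. At an unadjusted p of 0.05, 8 were called higher in the cKO libraries, where 5.27% of all genes tested were, and 1 was called lower, where 3.32% were (8.58% in either direction). The genes called higher were *Srebf1*, *Srebf2*, *Insig1*, *Insig2*, *Hmgcs1*, *Fasn*, *Scd2* and *Stard4*, and the gene called lower was *Apoe*. None passed the Benjamini-Hochberg adjustment in edgeR's quasi-likelihood test, by which 1 gene of all 18547 was called (0.00539%). At its unadjusted p, DESeq2 called 9 higher, the same 8 and *Idi1*, and 1 lower, where 5.8% and 4.38% of all genes were called. In DESeq2, *Srebf2* and *Apoe* passed it with adjusted p = 0.0455 and 1.17e-04, where 1.06% of genes were called higher and 0.823% lower. The log2 fold change was positive for 25 of the 32 genes and negative for 7, with a median of 0.28 against -0.0047 over all genes tested. This median was 0.17 without WT 1 and from 0.22 to 0.35 when another library was left out. Both cKO libraries lay above both WT libraries for 16 genes (21.6% of all genes) and both WT libraries above for 3 (20.3% of all genes).

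The number called higher rested on particular libraries. It was 1 without WT 1, where 6.21% of all genes were called higher, and 1 without cKO 1, where 2.12% were. It was 6 without WT 2, where 5.45% of all genes were called higher, and 5 without cKO 2, where 3.69% were, while *Apoe* was called lower whichever of the 4 libraries was left out. Without WT 1 the gene called was *Idi1*, which is none of the 8, and without cKO 1 it was *Srebf1*.

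**Figure D2:**
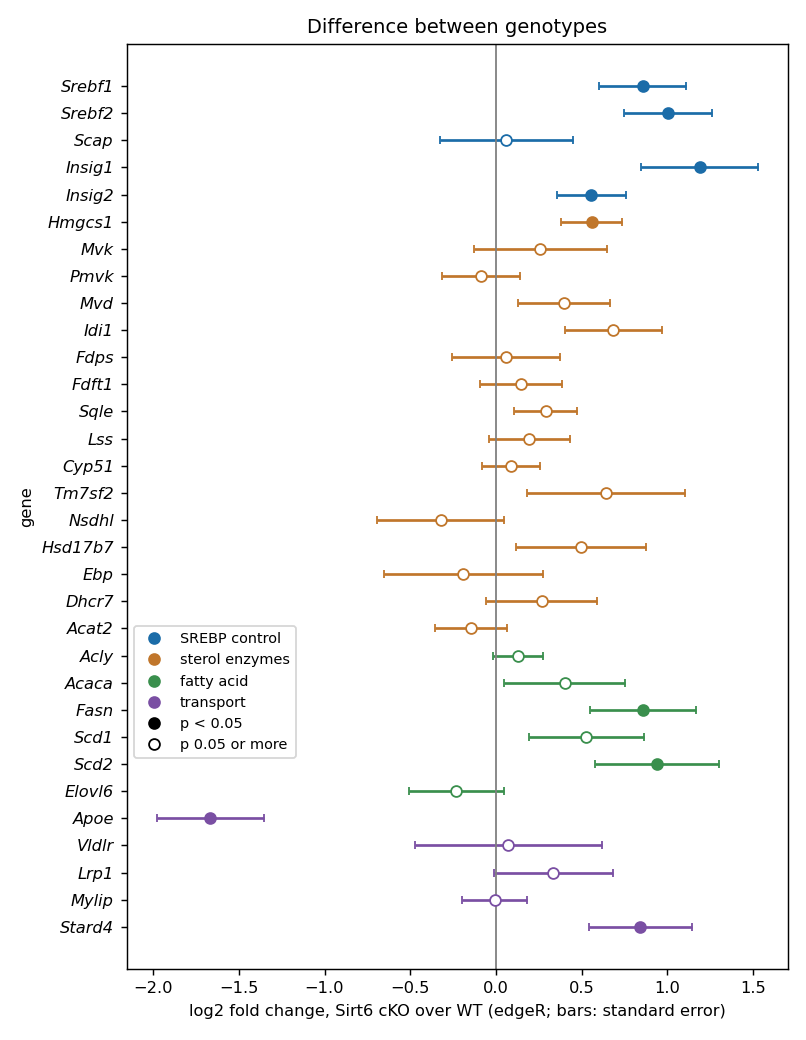
Log2 fold change of the libraries labelled *Sirt6* cKO over WT for the 32 genes, in the order of their roles, with bars for the standard error from edgeR. Filled points have an unadjusted p under 0.05, and 4 of the 5 genes of SREBP control are filled to the right of 0 while *Apoe* is the single filled point to the left.

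Among the genes of SREBP control, 4 of 5 rose, where 5.27% of all genes tested did, with a median log2 fold change of 0.86. *Srebf2*, which encodes the SREBP that acts mainly on sterol synthesis, was at 97.0 CPM in WT 1, 110.5 in WT 2, 251 in cKO 1 and 164 in cKO 2. The log2 fold change was 1.0 ± 0.26 (SE), with an unadjusted p = 0.00981 and an adjusted p = 0.54 in edgeR's quasi-likelihood test. The WT libraries lay close together and cKO 1 was 1.53 times cKO 2, and the log2 fold change was 0.66 without cKO 1. *Srebf1*, whose products drive fatty acid synthesis, was at 20.96 and 23.0 CPM in WT 1 and 2 and at 37.3 and 42.4 CPM in cKO 1 and 2. Its log2 fold change was 0.86 ± 0.25 (unadjusted p = 0.0175, adjusted p = 0.54 in edgeR), and within each genotype the libraries differed by 1.14 times or less. The gene shares 109 exon bases with *Rai1* on the opposite strand, and whether counting used strand is not given in the sources used here.

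The INSIG genes rose as well. *Insig1*, itself a sterol-responsive target of SREBP, was at 31.4 CPM in WT 1, 33.1 in WT 2, 95.0 in cKO 1 and 52.1 in cKO 2. This was the highest log2 fold change of the 32 genes, 1.19 ± 0.34 (unadjusted p = 0.0159, adjusted p = 0.54 in edgeR). Both cKO libraries lay above WT, and cKO 1 was 1.82 times cKO 2. Without cKO 1 the log2 fold change of *Insig1* was 0.69, below the 0.95 of *Srebf1*, and it was called in 1 of the 4 fits with a library left out. *Insig2*, which retains SCAP in the same way, was at 79.6 and 68.9 CPM in WT 1 and 2 and at 104 and 114 CPM in cKO 1 and 2. The fold change was smaller, at 0.56 ± 0.20 (unadjusted p = 0.0367, adjusted p = 0.55 in edgeR), and was not called in any fit with a library left out, under the upper quartile, with library size alone or with the replicate block. *Scap*, the escort protein, did not pass the test. It was at 22.6 CPM in WT 1, 43.9 in WT 2, 38.9 in cKO 1 and 30.5 in cKO 2, and the groups overlapped. On the per-length scale, the ratio of *Insig1* to *Insig2* was 0.363, 0.442 and 0.420 in WT 1, WT 2 and cKO 2, but 0.838 in cKO 1. The ratio of *Srebf2* to *Srebf1* was 4.35 and 4.52 in WT 1 and 2 and 6.34 and 3.65 in cKO 1 and 2, so the cKO libraries lay on either side of WT.

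**Figure D3:**
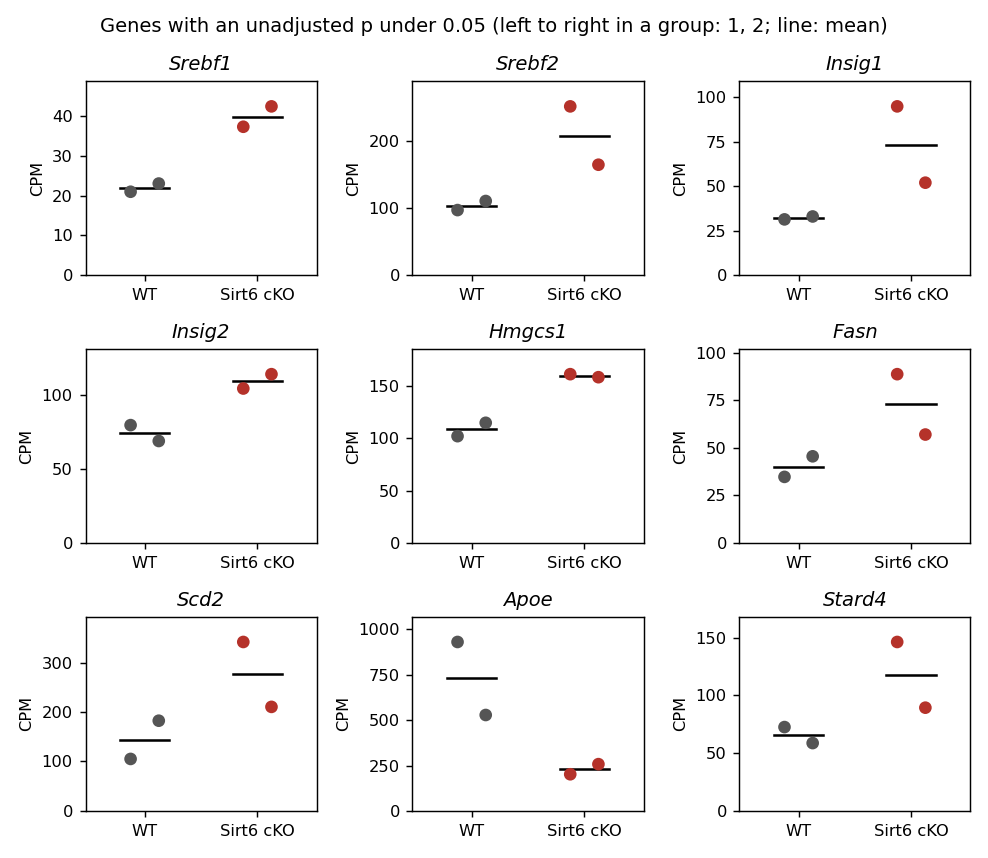
CPM in each library of the 9 genes with an unadjusted p under 0.05, with each axis starting at 0, grey points for WT, red points for cKO, replicates 1 and 2 from left to right and a line at the mean. In all 9 panels the groups do not overlap, which the choice by p makes likely, so this is no further support. Among all genes tested, both cKO libraries lie above for 21.6% and both WT libraries for 20.3%. For *Srebf2*, *Insig1*, *Fasn*, *Scd2* and *Stard4* cKO 1 lies well above cKO 2.

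Of the 16 enzymes of sterol synthesis, 1 rose, none fell and 15 did not pass the test, where 5.27% of all genes tested rose and 3.32% fell. A positive log2 fold change was found for 12 of them, and the median was 0.23. *Hmgcs1*, the HMG-CoA synthase at the entry of the mevalonate path, was at 102 CPM in WT 1, 115 in WT 2, 161 in cKO 1 and 158 in cKO 2. Its log2 fold change was 0.56 ± 0.18 (unadjusted p = 0.0234, adjusted p = 0.54 in edgeR), and the cKO libraries differed by 1.02 times. Its exons overlap those of *Gm48342* on the opposite strand over 557 bases.

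*Idi1*, the isopentenyl diphosphate isomerase, lay just outside the threshold. It was at 178 CPM in WT 1, 110.5 in WT 2, 257 in cKO 1 and 207 in cKO 2, with a log2 fold change of 0.68 ± 0.28 and an unadjusted p = 0.0557 in edgeR. Both cKO libraries were above both WT libraries, and DESeq2 called it higher at the unadjusted p. Of its 50-base words 21.3% also occur in other genes, most often in *Gm13502*. *Tm7sf2*, a sterol reductase, was at 4.90 and 4.92 CPM in WT and 9.82 and 5.52 CPM in cKO 1 and 2, which gave a log2 fold change of 0.64 ± 0.46. The difference came mainly from cKO 1, and the fold change was 0.17 without it. *Hsd17b7*, which reduces 3-keto sterols, was at 14.5 CPM in WT 1, 25.2 in WT 2, 32.3 in cKO 1 and 23.8 in cKO 2, and the groups overlapped.

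The other enzymes were spread around small differences. *Sqle*, the highest of the 16 in TPM, was at 247 and 287 CPM in WT and 293 and 359 CPM in cKO, a log2 fold change of 0.29 ± 0.19 that did not pass the test. *Mvd*, *Mvk*, *Dhcr7*, *Lss*, *Fdft1*, *Cyp51* and *Fdps* had positive log2 fold changes from 0.06 to 0.40. *Pmvk*, *Acat2*, *Ebp* and *Nsdhl* had negative ones, of which *Nsdhl*, a sterol dehydrogenase, was the lowest at -0.32 ± 0.37. *Nsdhl* was also the only enzyme of this path with both WT libraries above both cKO libraries, at 7.62 and 7.48 CPM against 6.18 and 5.91 CPM. Values for *Fdps* and *Acat2* are uncertain, since 86.4% and 45.9% of their 50-base words occur in other genes.

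Of the 6 enzymes of fatty acid synthesis, 2 rose and none fell, where 5.27% and 3.32% of all genes tested did. Their median log2 fold change was 0.46. With library size alone and with the replicate block none of the 6 was called. *Fasn*, the fatty acid synthase, was at 34.8 CPM in WT 1, 45.6 in WT 2, 88.7 in cKO 1 and 57.0 in cKO 2. It was higher by 0.86 ± 0.31 on the log2 scale (unadjusted p = 0.0367, adjusted p = 0.55 in edgeR). The groups did not overlap. Without cKO 1 the log2 fold change was 0.50, and limma on TPM did not call it at either pseudocount. *Scd2*, a stearoyl-CoA desaturase, was at 105 CPM in WT 1, 182 in WT 2, 342 in cKO 1 and 210.3 in cKO 2. It was higher by 0.94 ± 0.36 (unadjusted p = 0.0443, adjusted p = 0.57 in edgeR), although WT 2 and cKO 2 lay close together. Its log2 fold change was 0.57 without WT 1 and 0.55 without cKO 1, neither of them called, and the call was also lost under the upper quartile.

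*Scd1*, its paralog, overlapped between the groups, at 197 CPM in WT 1, 387 in WT 2, 384 in cKO 1 and 458 in cKO 2. Its log2 fold change of 0.53 ± 0.34 did not pass the test, and was 0.10 without WT 1 and 1.09 without WT 2. The paralogs share few sequences, as 4.01% of the 50-base words of *Scd2* occur in any other gene, most often in *Scd1*. In TPM, the ratio of *Scd2* to *Scd1* was 0.473 and 0.419 in WT and 0.789 and 0.408 in cKO 1 and 2. *Acly* was at 461 and 494 CPM in WT and 514 and 532 CPM in cKO, a log2 fold change of 0.13 ± 0.15. *Acaca*, the acetyl-CoA carboxylase that makes malonyl-CoA, had a log2 fold change of 0.40 ± 0.35 and overlapped between the groups. Of its 50-base words 52.6% occur in other genes, most often in *Gm5182*. *Elovl6*, which elongates palmitate, had a log2 fold change of -0.23 ± 0.28 with both WT libraries above both cKO libraries. Neither passed the test.

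**Figure D4:**
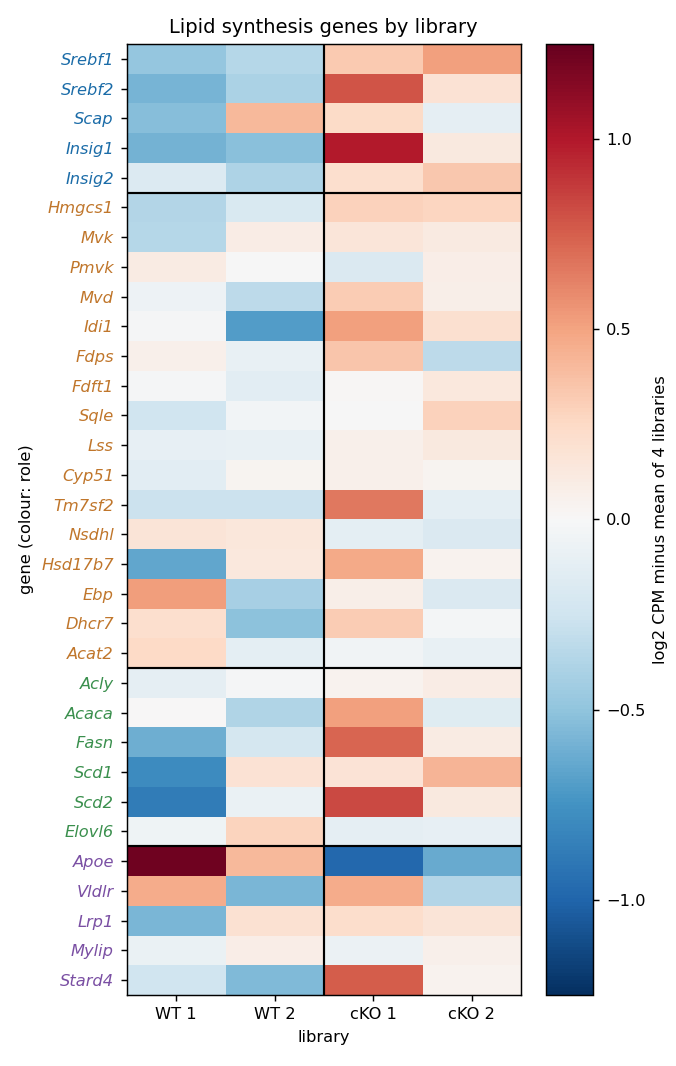
Log2 CPM of each of the 32 genes minus its mean over the 4 libraries, in colour from blue (below) to red (above), with rows grouped by role and columns for WT 1, WT 2, cKO 1 and cKO 2. The top block of SREBP control is mostly blue in WT and red in cKO, and the strongest red of *Srebf2*, *Insig1*, *Fasn*, *Scd2* and *Stard4* is in cKO 1.

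The libraries of a genotype differed from each other across the 32 genes. Each gene's log2 CPM was set against its own mean of the 4 libraries, and the median of these deviations over the 32 genes was -0.12 in WT 1, -0.10 in WT 2, 0.23 in cKO 1 and 0.08 in cKO 2. For the genes of SREBP control it was -0.53 and -0.38 in WT and 0.33 and 0.18 in cKO, and for the sterol enzymes -0.04 and -0.10 in WT and 0.11 and 0.06 in cKO. For fatty acid synthesis the median was -0.36 in WT 1, -0.05 in WT 2, 0.35 in cKO 1 and 0.09 in cKO 2. In these 3 groups both cKO libraries lay above both WT libraries, and cKO 1 lay above cKO 2. The genes of lipid transport overlapped, at -0.08 and 0.09 in WT and 0.22 and 0.05 in cKO.

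In lipid transport, *Stard4* rose, *Apoe* fell and 3 genes did not pass the test. *Stard4*, a carrier of cholesterol within the cell, was at 72.5 CPM in WT 1, 58.7 in WT 2, 146 in cKO 1 and 89.3 in cKO 2. It was higher by 0.84 ± 0.30 on the log2 scale (unadjusted p = 0.0351, adjusted p = 0.55 in edgeR), and by 0.44 without cKO 1. *Vldlr* and *Lrp1*, receptors of lipoproteins that carry apolipoprotein E, and *Mylip*, a ubiquitin ligase that degrades lipoprotein receptors, had log2 fold changes of 0.07 ± 0.55, 0.33 ± 0.35 and -0.0079 ± 0.19. All 3 overlapped between the groups.

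*Apoe* had the largest difference of the 32 genes in either direction. It was at 930.1 CPM in WT 1, 528 in WT 2, 202 in cKO 1 and 257 in cKO 2. It fell by 1.67 ± 0.31 on the log2 scale, to 229.6 ± 39.4 CPM from 729 ± 284 CPM (mean ± SD, n = 2). The unadjusted p was 0.00246 and the adjusted p = 0.54 in edgeR's quasi-likelihood test. Both WT libraries lay above both cKO libraries, but WT 1 was 1.76 times WT 2, and the log2 fold change was -1.22 without WT 1 and -2.02 without WT 2.

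Macrophages make much apolipoprotein E, and macrophage markers moved with *Apoe*. All 12 markers had a negative log2 fold change, from -1.93 for *C1qc* to -0.18 for *Mrc1*, with a median of -1.07. At the unadjusted p 7 of them fell, *Emr1*, *Cd68*, *C1qa*, *C1qb*, *C1qc*, *Lyz2* and *Timd4*, where 3.32% of all genes tested did. None of the 12 was at 0 in all libraries, and for 9 both WT libraries lay above both cKO libraries, as for 20.3% of all genes. Their summed level was 5786 CPM in WT 1, 3342 in WT 2, 2115 in cKO 1 and 2297 in cKO 2, the same order of libraries as for *Apoe*. The ratio of *Apoe* to this sum was 0.161 and 0.158 in WT and 0.0954 and 0.112 in cKO 1 and 2. This sum is mainly *Lyz2*, which had 304168 counts in WT 1 against 26704 for *C1qa*. The ratio of *Apoe* to *Lyz2* alone was 0.2002 and 0.1876 in WT and 0.1135 and 0.1351 in cKO. The ratio to *Cd68* was 16.6 and 14.7 in WT and 11.0 and 12.6 in cKO, and that to *C1qb* overlapped between the groups, at 3.67 and 5.49 in WT and 3.51 and 4.19 in cKO. The sort was on CD45- cells, which macrophages are not, and the part of macrophage RNA in the difference in *Apoe* was not tested.

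**Figure D5:**
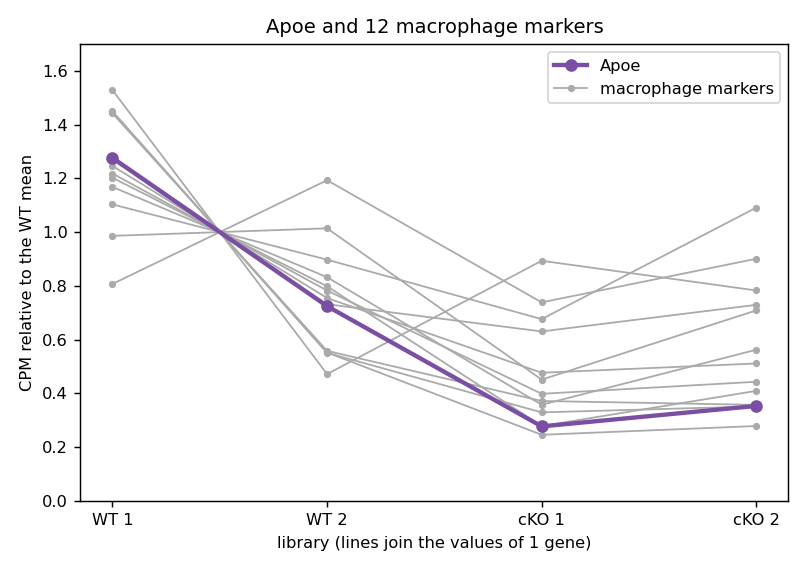
CPM of *Apoe* (purple) and of 12 macrophage markers (grey) relative to each gene's WT mean, in WT 1, WT 2, cKO 1 and cKO 2, with lines that join the values of 1 gene. *Apoe* goes from 1.28 and 0.724 in WT to 0.277 and 0.353 in cKO, within the range of the marker lines.

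A further 60 genes of lipid metabolism, listed by role and also with earlier results of these data known, were set beside the 32. Of these, 2 rose and none fell in edgeR's quasi-likelihood test at the unadjusted p of 0.05, where 5.27% and 3.32% of all genes did. The median log2 fold change was -0.02, with 27 positive and 33 negative. DESeq2 called 3 higher and 1 lower at the unadjusted p, where 5.8% and 4.38% of all genes were called. The lower gene was *Lpl*, the lipoprotein lipase. *Erlin1*, a membrane protein that binds SREBP and SCAP, was at 48.0 and 35.8 CPM in WT and 84.9 and 70.5 CPM in cKO, a log2 fold change of 0.89 ± 0.26. Its groups did not overlap, and the adjusted p was 0.54 in edgeR's quasi-likelihood test.

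By role, the median log2 fold change was 0.11 over 14 further genes of sterol synthesis and its control, 0.06 over 23 of fatty acid metabolism and -0.15 over 23 of sterol efflux and lipoproteins. In the last group none passed the test in edgeR, including the LXR target *Abca1*, a cholesterol exporter, at -0.08 ± 0.29. *Lpl* had a log2 fold change of -0.61 ± 0.25 and *Nr1h3*, which encodes LXR alpha, one of -0.72 ± 0.46. *Elovl1*, an elongase of very long chains, stood apart within a genotype, with 2779 counts in cKO 2 and from 182 to 286 counts in the other libraries. These 4 genes were named after their values were seen.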

How the data were processed

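Sorted mTECs of 2 genotypes were sequenced in 2 libraries each. After trimming, the authors used HISAT2 2.1.0 for alignment to mm10 and StringTie 1.3.3 for quantification (versions from the submitters' processing notes). The deposited counts are whole numbers without normalization. The deposited TPM values also hold 1 line per library that names no gene and equals the total, which was left out. The annotation and strand setting are not given in the sources used here.

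Counts were tested with edgeR 4.0.16 in R 4.3.3 (TMM, filterByExpr at its defaults of 10 for the count and 15 for the total, glmQLFit and glmQLFTest, two-sided), with Benjamini-Hochberg adjustment over the 18547 genes tested. A gene was called at an unadjusted p of 0.05, the threshold of the gene lists in the study's results, while its methods name an adjusted p of 0.05 with a fold change above 2. The biological coefficient of variation was 0.557. An exact permutation test of 2 libraries against 2 cannot go below p = 0.333. Whether same-numbered libraries were paired is not given in the sources used here. Their deviations had a correlation of -0.0507, which cannot settle it. TPM was used only to compare levels between genes. Members and lists were chosen with earlier results of these data known. Full values are given for members called, for the 4 others with the largest fold change and for the 3 with the highest TPM. Of the further lipid genes, those called are named, except 1 that is not reported here. Motifs were searched in the RefSeq promoter table of GRCm38.p6, and positions and shared sequence were taken from GENCODE M21. Marker lists of dendritic cells (sums of 118 to 128 CPM), thymocytes (612 to 1198), B cells (110.2 to 180) and endothelial cells (144 to 173) were summed in the same way. So were those of fibroblasts (630 to 731), cTECs (629 to 903) and *Ccl21a*-positive mTECs (705 and 1468 in WT, 326 and 431 in cKO). In the last list *Ccl21a* itself had the most counts in each library, 32962 and 78096 in WT and 8324 and 12621 in cKO. The alternatives were DESeq2 1.42.0, the study's tool, other scalings and filters, limma 3.58.1 on log2(TPM + 1) and log2(TPM + 0.1), the replicate block, and each library left out in turn, where the lone library is assumed to vary like the other group. The procedure was tested on simulated data. The simulated counts varied less between libraries than these data do, so that test does not show how often calls here are right.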

Additional observations from a re-analysis of the deposited data

How the results depend on the processing

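Over 12 alternatives for each of the 32 genes, 324 of 384 comparisons kept their direction and side of the threshold, 31 lost the call, 8 gained it and 21 changed direction. Most of the 384 belong to genes that were not called, which counted as kept by staying so. All 31 losses fell on the 8 genes called higher, most often on *Insig2*, *Fasn* and *Scd2*. No called gene changed direction, and *Apoe* was called lower in all 12. The median log2 fold change of the 32 genes was 0.17 to 0.35 over these alternatives, with 0.20 under the upper quartile and 0.19 with library size alone. The genes called higher, 8 in the main analysis, numbered 5 with library size alone and 1 to 6 with a library left out (5 without cKO 2). With the replicate number as a block they numbered 6, of which 5 were among the 8, although no pairing by number is given in the sources used here. Of all genes, 3.89% were called higher with library size alone and 3.76% with the block. The further lipid genes called higher numbered 1 with upper quartile normalization, library size alone, the filter of TPM over 0.1, limma at either pseudocount and the block, and 1 to 2 with a library left out. Those called lower numbered 1 in DESeq2, 2 with upper quartile normalization or library size alone, 1 with limma at either pseudocount and 0 to 1 with a library left out. All genes called higher ranged from 394 to 1152 and all called lower from 332 to 828 with a library left out, lowest without cKO 1. The shares of all genes called higher were 4.05% under the upper quartile, 5.67% with the TPM filter and 4.39% and 4.49% with limma. The shares called lower were 4.38% in DESeq2, 4.31% under the upper quartile, 4.52% with library size alone and 4.23% and 4.18% with limma. Of all calls, 61.4% were higher in the main analysis, 48.4% under the upper quartile and 46.2% under library size alone, which shifted the median of all genes by -0.08 and -0.09. It was 50.9% and 51.8% with limma and 45.2% without cKO 2. Under upper quartile normalization the log2 fold change became -0.023 for *Scap*, -0.031 for *Fdps* and -0.020 for *Vldlr*, and with library size alone -0.034, -0.032 and -0.014, and -0.000629 for *Cyp51*. With a library left out it ranged from -0.37 to 0.62 for *Scap*, -0.26 to 0.040 for *Pmvk*, -0.32 to 0.32 for *Fdps*, -0.016 to 0.17 for *Cyp51*, -0.61 to 0.37 for *Ebp*, -0.055 to 0.65 for *Dhcr7*, -0.32 to 0.027 for *Acat2*, -0.44 to 0.70 for *Vldlr*, -0.030 to 0.78 for *Lrp1* and -0.11 to 0.079 for *Mylip*. Beyond the change of samples or scale itself, the cause was not tested.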
